A study of Drosophila melanogaster x Drosophila simulans and Drosophila melanogaster and Drosophila simulans with 186 samples.

Results

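The cephalic furrow region was followed in hybrid embryos of *Drosophila melanogaster* and *Drosophila simulans* that had been cut into slices from the anterior to the posterior end, with RNA sequencing of every slice. The region was defined by position alone. A slice belonged to it when its midpoint lay above 25% and at most at 37.5% of the number of slices, counted from the anterior end, which is the third eighth of the axis. By this rule 15 of the 132 hybrid slices, and of the 186 slices of the series, were in the region, with 3 in each of the 5 hybrid embryos. They were slices 8 to 10 of embryos cut into 26 or 27 slices, and slices 7 to 9 of the embryo cut into 25. Numbers of slices follow the labels and the files; a list of embryos in the study gives other numbers for melXsim rep 3 and simXmel rep 1, and positions in these embryos depend on them. They were compared with the other 117 slices of the same embryos, called the rest. The second eighth is called the head region here and the fourth eighth the thoracic trunk region, with 19 slices each.

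The slices came from 3 melXsim embryos, which had a *D. melanogaster* mother of strain DGRP-340 and a *D. simulans* father of strain w501, and from 2 simXmel embryos, which had a mother of strain w501 and a father of strain DGRP-340. All were blastoderm embryos of cycle 14C, raised at 25 °C and fixed in methanol. The series also holds 1 embryo of each parental strain at the same stage, which entered no test. Replicates are embryos, because slices of 1 embryo are parts of the same animal, and each value below is a mean over the slices of a region in 1 embryo. Values of the 5 embryos are always given in the order melXsim rep 1, rep 2 and rep 3, then simXmel rep 1 and rep 2.

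The cephalic furrow is a transient epithelial fold that separates the head from the trunk at the onset of gastrulation. It forms where the first stripe of the pair-rule gene *even skipped* (*eve*) meets the domain of the head gap gene *buttonhead* (*btd*), and the cells there express the Hox gene *Deformed* (*Dfd*), which specifies the mandibular and maxillary segments. Maternal gradients set the domains of gap genes, these set the stripes of pair-rule genes, and segment polarity and Hox genes follow. The embryos were labelled as blastoderm, so the region is a stretch of the axis around the place of the later fold and not a fold that was observed.

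Expression was measured as FPKM, the fragments of a gene scaled by the length of its transcript and by the mapped fragments of the library. FPKM values were present for 12 of the 15 furrow slices, which were 2, 3, 3, 2 and 2 slices of the 5 embryos, and for 106 of the 117 other slices. Allele-specific expression (ASE) was present for 14 of 15 and 112 of 117. The furrow slice without FPKM was the most anterior one in melXsim rep 1 and simXmel rep 1, and the most posterior one in simXmel rep 2. In the head region 17 of 19 slices had FPKM, and the most anterior ones of melXsim rep 1 were blank. For genes graded across a region, embryo values also depend on which slices are blank, and the size of this part was not tested. The sums of usable allele counts in slices with ASE ranged between 1126219 and 2515206 in the region, against 683392 and 3758730 in the rest. In bulk slices, fewer cells that express a gene and less RNA per cell cannot be told apart.

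The markers showed that the same slice numbers did not fall on the same place of the pattern in every embryo. The slice with the most *Dfd* lay at 35.2%, 28.8%, 38.9%, 38% and 31.5% of the axis, and thus outside the region in melXsim rep 3 and simXmel rep 1. The margin was small in both, with 9.54 FPKM against 9.46 FPKM in the highest furrow slice of melXsim rep 3. In simXmel rep 1 it was 48.4 against 46.3 FPKM. The first slice with at least 20 FPKM of *eve* lay at 31.5%, 21.2%, 27.8%, 30% and 27.8%, so that at this floor the stripes began farthest anterior in melXsim rep 2. In melXsim rep 1 and simXmel rep 1 the slice just before had no FPKM, so their stripes may begin farther anterior than given. In simXmel rep 1 the slice at 22% had 18.4 FPKM of *eve*, just under this floor. In the parental embryos the *Dfd* maximum was at 35.2% in *D. melanogaster* and at 24.1% in *D. simulans*. Some results are also given with 1 of the embryos left out.

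Of the markers of the region, *Dfd* and *gt* were higher there than in the rest and *eve* was not. *Dfd* (chr3R:2617558-2628150 in release 5 of the *D. melanogaster* genome, as all positions below) had 30.3, 23.7, 6.85, 39.8 and 46.5 FPKM in the furrow region, against 2.57, 3.01, 1.07, 5.41 and 0.609 FPKM in the rest. Every furrow value was above every value of the rest. The difference was 3.05 ± 0.30 (SE, n = 5) on the scale of log2(FPKM + 1), on which all differences of expression are given, with an adjusted p of 3.51e-05 by limma. In single slices it ranged between 5.28 and 60.5 FPKM in the 12 furrow slices (median 30.3), against 0 and 48.4 FPKM in the 106 others (median 0.52). The gap gene *giant* (*gt*, chrX:2321146-2323000), a repressor with an anterior and a posterior domain, had 228, 186, 655, 269 and 207 FPKM in the furrow region, against 106, 103, 173, 126 and 77.2 FPKM in the rest, a difference of 1.27 ± 0.11 (limma adjusted p = 1.66e-05). The value of melXsim rep 3 stood above the others. *Gt* was not particular to the region, as its mean was 235 FPKM in the head region, against which the furrow differed by 0.26 ± 0.16 (limma adjusted p = 0.577), and its maximum lay at 9.26%, 21.2% and 10% of the axis in melXsim rep 1, melXsim rep 2 and simXmel rep 1. For *eve* (chr2R:5866824-5868300) the furrow values were 142, 209, 178, 186 and 86.5 FPKM, against 149.9, 169.7, 175, 189 and 122 FPKM in the rest, with a difference of -0.05 ± 0.09 (limma adjusted p = 0.816) and overlapping groups. Its mean was 13.8 FPKM in the head region and 160.4, 231, 237, 258 and 325 FPKM in the third to the seventh eighth, so the rest holds stripes too. An exact two-sided sign-flip permutation test over the 5 embryos gave p = 0.0625 for *Dfd* and for *gt*, the smallest value that 5 embryos allow, and p = 0.688 for *eve*.

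**Figure D1:**
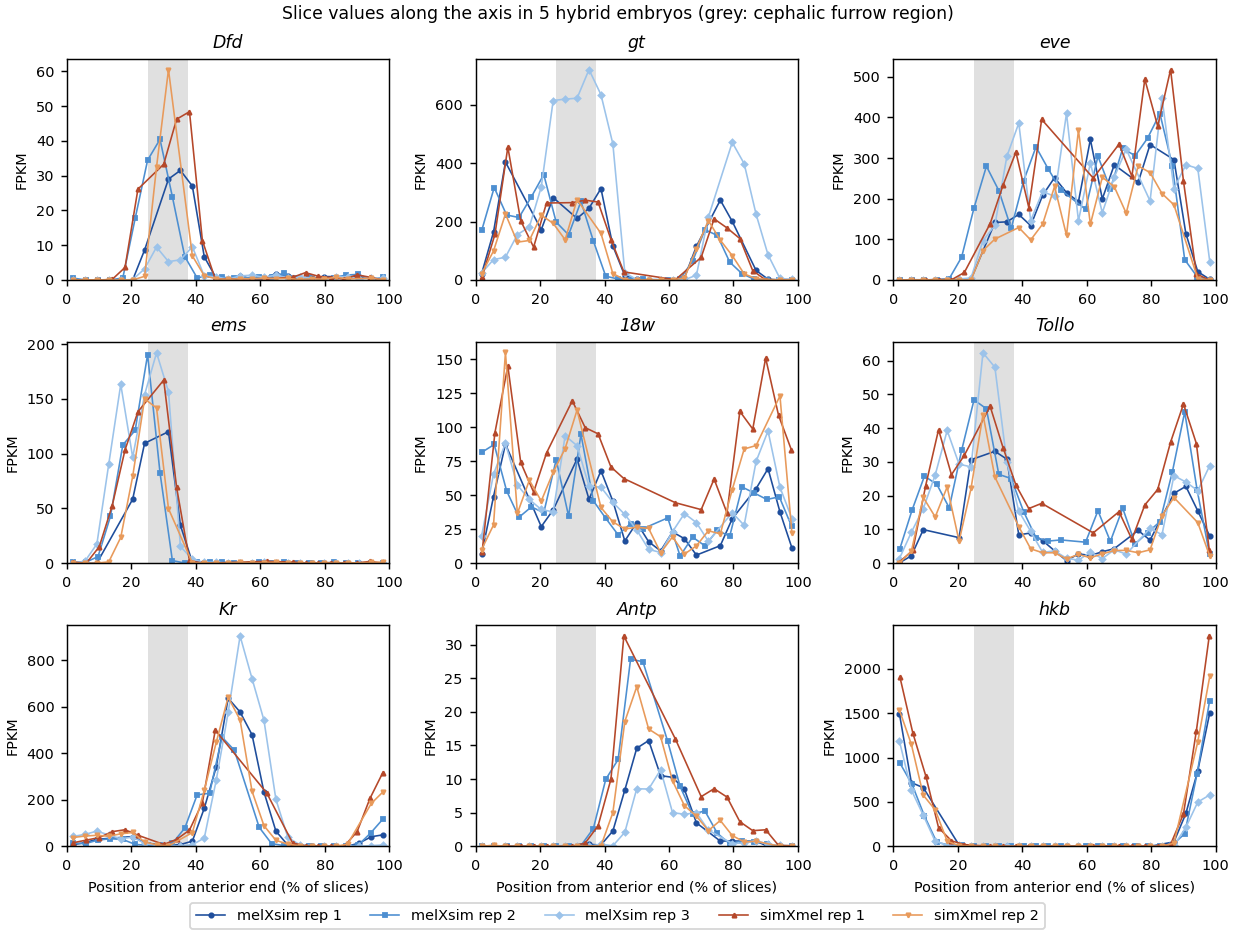
FPKM of 9 genes (vertical axes) in each slice with values against the position of the slice from the anterior end in % (horizontal axes), with 1 line for each of the 5 hybrid embryos and the cephalic furrow region in grey; lines join across slices without values. *Dfd* and *ems* are highest in or next to the grey band, *gt* and *eve* also outside it, and *Kr*, *Antp* and *hkb* are low in it.

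The comparison with the rest of the embryo asked which genes set this stretch of the axis apart. Of 6722 genes tested, 145 were higher in the furrow region (2.16%) and 285 were lower (4.24%), or 6.4% in both directions, at an adjusted p below 0.05 in limma paired by embryo, and 373 and 879 had an unadjusted p below 0.05. The sign was the same in all 5 embryos for 138 of the higher and 267 of the lower genes. Called differences were moderate for the higher genes, with a median of 0.59 and a maximum of 3.05, and 27 of them reached 1. The lower genes had a median of -0.73, the largest was -7.35, and 92 reached a drop of 1. The median over all genes tested was -0.03. The excess of lower genes turned with the median over slices in place of the mean, which gave 164 higher and 70 lower genes, of which 112 and 63 were shared. Within the library batches that the study names, 80 genes were higher and 130 lower in the first embryo of each direction (first batch), and 95 and 129 in the other 3 embryos (later batches). Without melXsim rep 2, whose stripes began farthest anterior, the counts were 116 higher and 231 lower, of which 111 and 215 were shared with the full set of embryos. They were 108 and 208 without melXsim rep 1 and 123 and 230 without melXsim rep 3. Without simXmel rep 1 they were 137 and 225, and without simXmel rep 2 111 and 190.

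Where the called genes peaked along the axis is given as a description, since they were called on the level of the furrow eighth against the others. Of the 145 higher genes, 80 (55.2%) had their highest mean in the furrow eighth, 29 in the head region and 21 in the thoracic trunk region, while among all 6722 genes 568 (8.45%) had it in the furrow eighth. Of the 285 lower genes, 118 (41.4%) were highest in the last eighth and 86 (30.2%) in the first, against 1906 (28.4%) and 1603 (23.8%) of all genes.

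Head gap genes were among the largest increases. *Empty spiracles* (*ems*, chr3R:9727575-9730342), a homeobox gene of the head segments, had 77.2, 28.4, 121, 118 and 95.8 FPKM in the furrow region, against 8.49, 21.7, 23.1, 17.6 and 11.3 FPKM in the rest (2.28 ± 0.29, limma adjusted p = 0.000265). The lowest furrow value, that of melXsim rep 2, was close to its rest. *Buttonhead* (*btd*, chrX:9588219-9591591), a zinc-finger gene needed for the furrow itself, had 32.1, 4.67, 19.7, 34.2 and 50.2 FPKM, against 4.34, 3.69, 1.79, 13.1 and 5.58 FPKM in the rest (2.02 ± 0.31, limma adjusted p = 0.00135), and melXsim rep 2 was again the lowest. The forkhead gene *slp1*, which acts in the head and as a pair-rule gene, averaged 198 ± 73.7 FPKM in the furrow region and 67.8 ± 12.5 FPKM in the rest (SD, n = 5 each) and rose by 1.47. Its neighbour *slp2* rose by 1.15. Of the 10 head patterning genes tested, 4 were higher and 3 lower than in the rest, with a median of 0.20. Of all genes 2.16% were higher and 4.24% lower, and the list was chosen with earlier results of these data known. *Croc* (-5.01), *hbn* (-3.64) and *Optix* (-2.13), which act farther anterior, were those that fell. *Otd* (*oc*) and *Gsc* had differences of 0.11 and 0.29 and were not called, nor was *cnc* (-0.74), and *kn* and *toy* were under the minimum of 1 FPKM.

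The other genes with the largest increases are given one by one. *Dll*, the homeobox gene of the limb primordia, had 6.68, 16.8, 4.23, 15.5 and 18.4 FPKM in the furrow region, against 2.88, 1.25, 1.04, 4.18 and 2.43 FPKM in the rest (1.90 ± 0.24, limma adjusted p = 0.000235). Its lowest furrow value, in melXsim rep 3, was just above the highest value of the rest. The zinc-finger gene *salm*, which acts in the head and tail segments, averaged 45.99 ± 23.6 FPKM in the furrow region and 13.3 ± 3.82 FPKM in the rest and rose by 1.63. The short reading frame *tal-2A* of *tarsal-less* averaged 18.6 ± 11.7 FPKM in the furrow region and 4.49 ± 4.18 FPKM in the rest and rose by 1.96. The nuclear factor *dan* rose by 1.24, the zinc-finger repressor *Blimp-1* by 1.18, the Polycomb-group gene *ph-p* by 1.36 and the Notch-responsive gene *E(spl)malpha-BFM* by 1.26. *CG13894* and *CG7420* rose by 1.68 and 1.53. *CG7420* had 40.6, 41.4, 36.5, 60.9 and 37.1 FPKM in the furrow region, against 11.6, 14.9, 9.396, 20.6 and 16.2 FPKM in the rest, and these groups did not overlap. *Blimp-1* was highest in the first eighth and *ems*, *btd* and *slp1* in the second, so not every gene higher than the rest peaked in the region. With no filter on low values *ems*, *btd*, *Dll*, *slp1* and *Blimp-1* were no longer called (adjusted p between 0.0513 and 0.109 by limma), nor was *btd* in the later batches (0.0508).

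*Tollo* (chr3L:15228719-15235932) encodes Toll-8, a leucine-rich repeat receptor of the cell surface that helps to orient cell rearrangements in the germ band. It had 31.97, 32.4, 50.1, 40.4 and 34.8 FPKM in the furrow region, against 8.74, 16.9, 13.7, 20.8 and 7.803 FPKM in the rest. The groups did not overlap, which was so for 21 genes in this direction (0.312%). The difference was 1.48 ± 0.15 (limma adjusted p = 5.45e-05). *Tollo* was not particular to the region in every embryo. Near 90% of the axis a slice had 44.8 FPKM in melXsim rep 2 and 47.1 FPKM in simXmel rep 1, against at most 45.7 and 46.5 FPKM in their furrow slices. In the other embryos posterior slices stayed below all furrow slices. The last slice of the head region of melXsim rep 2 had 48.4 FPKM.

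The genes that fell most were those of the embryo's ends. The terminal gap gene *huckebein* (*hkb*, chr3R:170737-172368) had 2.37, 0.29, 0.37, 0.275 and 0.51 FPKM in the furrow region, against 284, 213, 155, 464 and 299 FPKM in the rest (-7.35 ± 0.22, limma adjusted p = 1.3e-09). All furrow values were near 0 and none overlapped the rest, as for 78 genes lower in the region (1.16%). *Tailless* (*tll*), the other terminal gap gene, had 0.29, 0.167, 5.003, 1.94 and 3.35 FPKM, against 145, 88.01, 128, 178 and 136 FPKM in the rest (-5.68 ± 0.26). *Forkhead* (*fkh*), a gene of the gut primordia, fell by 5.33, *ribbon* (*rib*) by 4.93 and *croc* by 5.01. *ImpE2* was listed at 0, 0, 0.36, 0 and 0.16 FPKM in the furrow region, against 71.7, 32.95, 30.6, 147 and 54.98 FPKM in the rest, and *CG12986* at 0, 0, 0.367, 0 and 0 FPKM, against 42.6, 23.6, 16.2, 85.1 and 29.5 FPKM. The size of such differences rests on the 1 FPKM added. It also rests on the mean over slices, since with the median over slices *hkb* (-1.30), *ImpE2* (-0.40), *fkh* (-0.32), *CG12986* (-0.20) and *croc* (-0.48) were no longer called and *tll* had 0.27. *Nubbin* (*nub*), a POU-domain gene of the trunk, fell by 4.92 and was highest in the sixth eighth, with 113 FPKM.

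**Figure D2:**
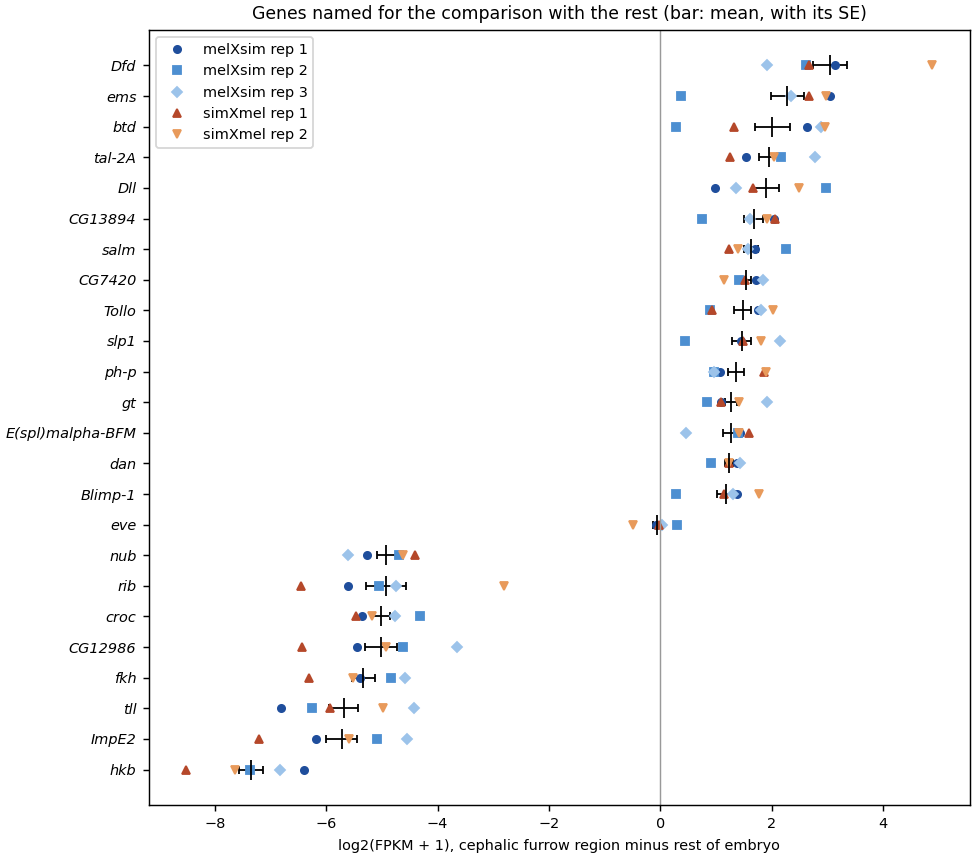
Difference between the cephalic furrow region and the rest of the embryo in log2(FPKM + 1) (horizontal axis) for 24 genes (vertical axis), with 1 point per hybrid embryo and a bar for the mean with its SE. The 5 points lie right of 0 for the 15 higher genes and left of it for the 8 lower ones, since the rule that named them required 1 sign in all 5 embryos. Those of *eve* lie on both sides of 0.

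Levels also varied within the region. In melXsim rep 2, slices 8, 9 and 10 had 82.7, 2.35 and 0.1 FPKM of *ems*, and in melXsim rep 3 192, 157 and 15.3 FPKM, so *ems* was lower towards the trunk in both embryos that have all 3 slices. The same slices had 155, 81.7 and 91.6 FPKM of *slp1* in melXsim rep 2 and 524, 241 and 98.9 FPKM in melXsim rep 3. *Kr*, the gap gene of the central trunk, had 3.7, 12.9 and 78.4 FPKM in melXsim rep 2 and 3.48, 1.34 and 1.93 FPKM in melXsim rep 3, and only the first of these embryos had a level above 50 FPKM at the posterior border. *Eve* had 279.9, 220.1 and 127 FPKM and 96.7, 135 and 304 FPKM in the same order, highest in the first slice of melXsim rep 2 and in the last slice of melXsim rep 3.

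The comparison with the head region asked what changes on crossing into the furrow region from the anterior side. Of the 6722 genes, 106 were higher (1.58%) and 132 lower (1.96%) in the furrow region, 3.54% in both directions, at an adjusted p below 0.05, with a median of -0.02 over all genes. With 1 embryo left out, the counts lay between 72 and 99 for higher genes and between 90 and 122 for lower genes. Pair-rule genes led the increases. *Ftz* had 141, 239, 69.1, 151 and 59.7 FPKM in the furrow region, against 0.145, 36.9, 0.517, 0.907 and 0.268 FPKM in the head region (5.41 ± 0.44, limma adjusted p = 2.42e-05). *Eve* had 142, 209, 178, 186 and 86.5 FPKM, against 0.855, 59.4, 2.098, 6.61 and 0.0275 FPKM in the head region (4.99 ± 0.52, limma adjusted p = 0.000142), and *run* rose by 3.71. For *ftz* and *eve* the head region of melXsim rep 2 held far more than that of the other embryos. Of the 8 pair-rule genes, 7 were higher and none lower, with a median of 2.74. The exception was *slp1* (-0.53, limma adjusted p = 0.289). The neural homeobox gene *ind* rose by 4.14, with 37.4, 76.6, 0.39, 97.5 and 55.9 FPKM in the furrow region, against 0.125, 6.495, 0, 0 and 0.608 FPKM in the head region, and was nearly absent from the furrow region of melXsim rep 3. *CG4702* rose by 3.90. With no filter on low values the differences were the same, but *ftz*, *eve*, *ind* and *run* were no longer called (adjusted p between 0.103 and 0.33 by limma), nor was *ind* in the later batches (0.0512).

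The largest decreases against the head region were brain and terminal genes. *Tll* had 0.29, 0.167, 5.003, 1.94 and 3.35 FPKM in the furrow region, against 219, 96.7, 286, 198 and 167 FPKM in the head region (-6.15 ± 0.24, limma adjusted p = 9.58e-08). *Homeobrain* (*hbn*) had 0.28, 0.687, 1.34, 0.98 and 0.4 FPKM in the furrow region, against 54.6, 63.4, 90.7, 154 and 111 FPKM in the head region (-5.72 ± 0.19). *CG15696* fell by 4.79, *hkb* by 4.41 and the zinc-finger gene *erm* by 4.11. The last 3 were no longer called with no filter (adjusted p between 0.0736 and 0.22 by limma). The furrow and head values of *hbn* did not overlap, as for 45 lower genes (0.669%). Head patterning genes had a median of -1.48 in this comparison, with 5 of 10 lower and none higher, against 1.96% and 1.58% of all genes. Of this list *ems* (-0.26) and *btd* (-0.13) were not called. *Dfd* rose by 2.52.

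Against the thoracic trunk region, 125 genes were higher (1.86%) and 64 lower (0.952%), 2.81% in both directions, with a median of 0.01 over all genes. Here the head genes led the increases, as *ems* had 77.2, 28.4, 121, 118 and 95.8 FPKM in the furrow region, against 0.325, 0.873, 1.26, 0.827 and 0.152 FPKM in the trunk region (5.61 ± 0.25, limma adjusted p = 9.07e-08). *Btd* rose by 3.40, the anterior domains of the related nuclear receptors *kni* and *knrl* by 4.28 and 3.08, and the homeobox gene *oc* by 3.07. For *kni* the furrow values were 42.9, 20.6, 29.3, 47.99 and 74.5 FPKM, against 0.0525, 3.69, 0.472, 2.68 and 0.435 FPKM in the trunk region, with no overlap (29 genes in this direction, 0.431%). Of the 10 head patterning genes 7 were higher and none lower, with a median of 2.12. None of the 10 genes named against the trunk region, higher or lower, was called with no filter on low values (adjusted p between 0.0649 and 0.387 by limma, at the same differences).

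*Kr* had the largest decrease against the trunk region, with 5.195, 31.7, 2.25, 18.97 and 4.02 FPKM in the furrow region, against 291, 306, 226, 252 and 347 FPKM in the trunk region (-4.94 ± 0.36, limma adjusted p = 7.37e-06). Its highest furrow values were those of melXsim rep 2 and simXmel rep 1. The value of simXmel rep 2 lacks the most posterior slice of the region, and the slice behind that one had 59.0 FPKM. The trunk genes *teashirt* (*tsh*) and *Antennapedia* (*Antp*), a Hox gene of the thorax, fell by 3.31 and 3.02, *CG4702* by 2.07 and *gk* by 2.00. *CG4702* was no longer called without the trend in the variance (adjusted p = 0.0593 by limma). For *Antp* the values were 0.145, 0.92, 0.04, 0.24 and 0.025 FPKM, against 6.36, 16.9, 2.77, 14.8 and 11.8 FPKM in the trunk region. Of the 8 pair-rule genes, 5 were lower (*eve*, *ftz*, *run*, *odd* and *opa*) and *slp1* was higher, with a median of -0.41. Of all genes 0.952% were lower and 1.86% higher. Single embryos moved the count of higher genes. Without simXmel rep 2 they were 65 higher and 45 lower, without melXsim rep 1 78 and 46, and without melXsim rep 3 79 and 51.

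A test for genes above both neighbours found 1 gene, *18 wheeler* (*18w*, chr2R:15999016-16004437), which encodes the surface receptor Toll-2 (0.0149% of genes tested, and 55 at an unadjusted p below 0.05). It had 61.8, 58.5, 78.97, 109.6 and 98.5 FPKM in the furrow region, against 33.1, 47.1, 45.4, 69.2 and 52.6 FPKM in the head region and 39.9, 27.7, 40.2, 76.1 and 30.7 FPKM in the trunk region. Every embryo was higher in the furrow region than in either neighbour, and so were 34 genes in all (0.506%). The difference from the higher neighbour was 0.62 ± 0.08 (limma, one-sided, adjusted p = 0.0324), and against the rest of the embryo *18w* rose by 0.79. The call is not firm, since the adjusted p lay between 0.0047 and 0.197 when 1 embryo was left out and stayed below 0.05 only without melXsim rep 2. It was 0.0527 with the median over slices, where 1 other gene was called. Along the axis *18w* was also high at the poles, with 65.4 FPKM in the first and 65.9 FPKM in the last eighth. *Dfd* was higher by 2.52 than the head region and by 2.25 than the trunk region, and its difference from the higher of both in each embryo was 1.67 ± 0.36 (limma, one-sided, adjusted p = 0.306). limma called 0 genes below both neighbours, with 48 below both in all 5 embryos (0.714%), and 64 had an unadjusted p below 0.05. Genes called above both were 2 without melXsim rep 2, *18w* among them, 2 without melXsim rep 3, neither of them *18w*, and 0 without any of the other embryos, and 1 gene was called below both without melXsim rep 2.

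Of 15 folding and myosin genes, 4 were higher and 2 lower than in the rest, against 6.4% of all genes called in both directions. This list, like the other lists, was chosen with earlier results of these data known, so its counts are a description. The higher ones were *Tollo*, *18w*, *shg* (0.38), which encodes E-cadherin, and *T48* (0.37), which recruits RhoGEF2 to the apical membrane. The secreted ligand *fog* (-0.63) and the receptor gene *mthl1* (-0.59) were lower, and the median was 0.05. *Fog* averaged 2.01 ± 0.434 FPKM in the furrow region and 3.83 ± 1.72 FPKM in the rest. The genes of the contractile machinery were not called. *Zip* (myosin II heavy chain) averaged 60.02 ± 11.9 FPKM in the furrow region and 57.7 ± 17.3 FPKM in the rest, and *sqh* (its regulatory light chain) 299 ± 40.04 FPKM in the furrow region and 324 ± 47.1 FPKM in the rest. Against each neighbour only *18w* and *Tollo* of these 15 genes were called, both higher. None of the 8 mitotic timing genes was called in any of the 3 comparisons, in which 6.4%, 3.54% and 2.81% of all genes were called, so nothing is read from this count. *Stg*, the Cdc25 phosphatase that starts mitosis, averaged 18 ± 7.96 FPKM in the furrow region and 18.3 ± 6.02 FPKM in the rest.

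**Figure D3:**
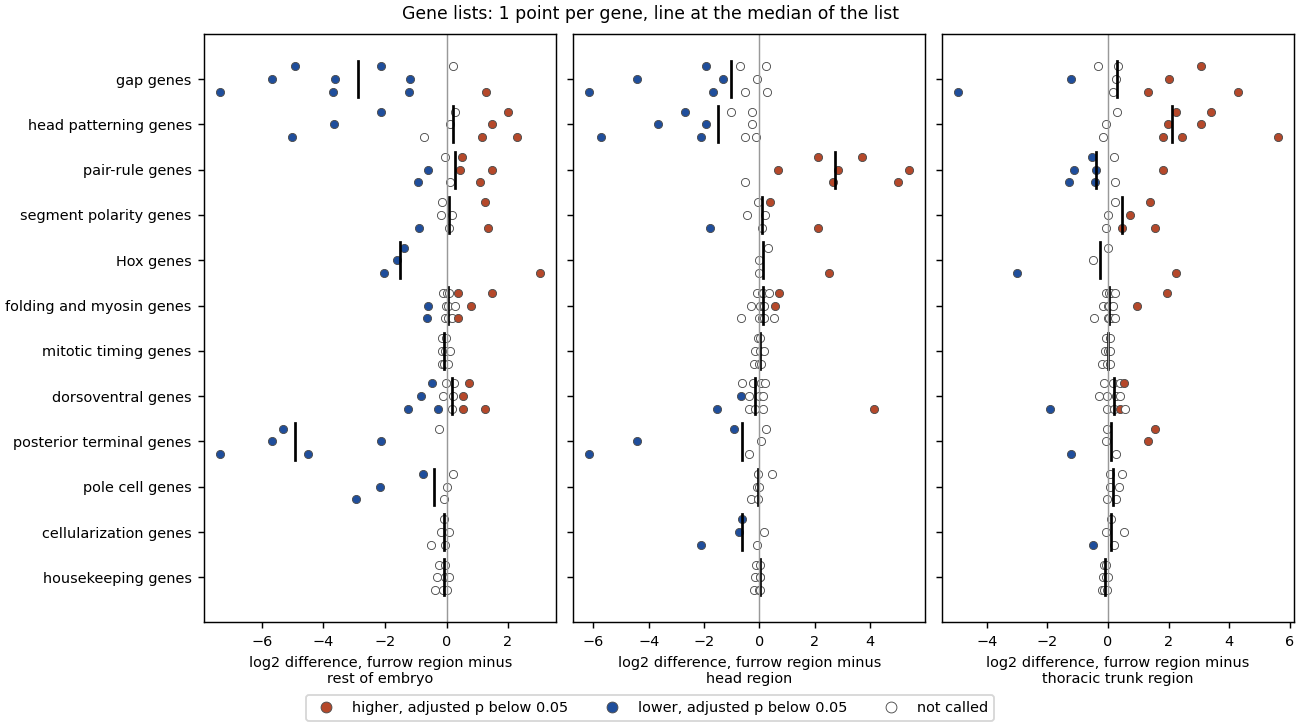
Differences in log2(FPKM + 1) between the cephalic furrow region and the rest, the head region or the thoracic trunk region (horizontal axes) for the genes of 12 lists (vertical axis), with 1 point per gene tested, filled where limma called it, and a black line at the median of the list. Pair-rule genes other than *slp1* lie right of 0 against the head region, and 7 of 10 head patterning genes are called higher against the trunk region.

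Counts of the other segmentation lists against the rest stand beside 6.4% of all genes called, 2.16% higher and 4.24% lower. Of 10 gap genes, *gt* was higher than in the rest, *hb* was not called (0.21) and 8 were lower, with a median of -2.89. Of these *hkb* and *tll* were not called with the median over slices. Of the pair-rule genes, *slp1*, *prd* (1.10), *opa* (0.49) and *h* (0.42) were higher than in the rest, *odd* (-0.93) and *ftz* (-0.59) lower, and the median was 0.26. Of 7 segment polarity genes tested, the T-box gene *mid* (1.35) and the paired-domain gene *gsb* (1.25) were higher, the signal *wg* (-0.89) was lower, and *hh*, *ptc*, *ci* and *nkd* were not called. Of 4 Hox genes tested *Dfd* was higher, and *Antp* (-2.04), *Ubx* (-1.62) and *abd-A* (-1.38) were lower. *Scr*, which acts in the segment behind *Dfd*, was below the minimum, with 0.595 ± 0.699 FPKM in the furrow region and 0.142 ± 0.0964 FPKM in the rest, as were *lab*, *pb* and *Abd-B*.

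Genes of other axes and cell groups varied too. Of 13 dorsoventral genes 4 were higher and 4 lower than in the rest, against 2.16% and 4.24% of all genes, with a median of 0.17. The protease gene *tld* (0.74), *sog* (0.53), *brk* (0.52) and *ind* (1.25) were higher, and *twi* (-0.48), *sna* (-0.28), *tup* (-0.84) and *pnr* (-1.24) lower. Of 6 posterior terminal genes 5 were lower, of which *hkb*, *tll* and *fkh* lost the call with the median over slices, with a median of -4.92, and *byn*, a T-box gene of the hindgut, was at 0.053 ± 0.1001 FPKM in the furrow region and 25.6 ± 15.5 FPKM in the rest. Of 6 pole cell genes *nos*, *pgc* and *osk* were lower, with *pgc* at 3.28 ± 0.442 FPKM in the furrow region and 34.3 ± 13.9 FPKM in the rest, and the other 3 were not called. None of the 5 cellularization genes and none of the 8 housekeeping genes with values was called against the rest, with medians of -0.08 for both lists. With 6.4% of all genes called in this comparison, nothing is read from these counts. Against the head region, where 1.96% of all genes were lower, *nullo* (-2.11), *bnk* (-0.64) and *dunk* (-0.75, listed as *CG34137*) were lower.

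The parental embryos, which took no part in the tests, were read as a further description. Of the 145 higher genes, 116 (80%) were also higher in the third eighth than in the rest in both parental embryos, and of the 285 lower genes 205 (71.9%) were lower in both. Among all genes tested these shares were 28.2% and 28.1%. *Dfd* differed by 3.36 in the *D. melanogaster* and 1.86 in the *D. simulans* embryo, *Dll* by 1.47 and 3.47, and *ems* by 3.41 and -3.16. *Btd* likewise had opposite signs, 2.95 and -1.56, and the *D. simulans* embryo is the one with the *Dfd* maximum farthest anterior. With 1 embryo per strain these values have no replicate check, and strain and slicing cannot be told apart.

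Genes called in either direction had a more even share of the mother's allele than other genes. This share was computed from ASE and averaged over all slices of an embryo and then over embryos. Its median was 52.4% for the 122 autosomal genes among the higher ones and 55% for the 200 among the lower ones, against 79.5% for the 4527 genes that were not called. It was below 60% for 79.5% of the higher and 64% of the lower genes, against 19.7% of those not called. An even share is what zygotic transcription of both alleles gives, and a high share is what mRNA deposited by the mother gives.

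The difference between region and rest did not differ between the directions of the cross at the threshold. Of 6722 genes, limma called 0, with 281 genes of larger and 82 of smaller difference in melXsim embryos at an unadjusted p below 0.05 and a smallest adjusted p of 0.0646. The lowest p belonged to *exu*, a maternal gene of mRNA localization, with furrow values of 2.995, 2.38, 3.57, 0.51 and 0.45 FPKM, against 4.16, 1.48, 2.78, 5.87 and 5 FPKM in the rest, and a difference between melXsim and simXmel of 2.24 ± 0.31. Both simXmel embryos were below all melXsim embryos in the furrow region. *Obp99a* had 81.05, 62.8, 38.1, 16.3 and 54.3 FPKM, against 79.4, 66.5, 36.2, 33.5 and 92.03 FPKM in the rest (0.88 ± 0.14, limma adjusted p = 0.081). *CG15696* (-1.70 ± 0.27), *Cpr72Ea* (limma adjusted p = 0.0646) and *Gasp* (1.55 ± 0.28) followed. The last 2 were near 0 in the furrow region, with at most 0.4 FPKM of *Cpr72Ea* and 2.79 FPKM of *Gasp* in a single furrow slice. The difference of *Cpr72Ea* between directions thus lies in the values of the rest. With 5 FPKM added in place of 1, or without melXsim rep 2, 8 genes were called. Without melXsim rep 3 there were 2, and without either simXmel embryo 1, where the other simXmel embryo is the only one of its direction and the spread comes from the melXsim embryos alone.

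ASE compares the alleles of both species in the same cells, as (sim - mel)/(sim + mel), which is 1 when all reads are from *D. simulans* and -1 when all are from *D. melanogaster*. A shift of ASE between the furrow region and the rest that has the same sign in both directions of the cross is read as a species shift, because the maternal share enters with opposite signs. Of 3690 autosomal genes tested, limma called 0, with a smallest adjusted p of 0.135, and 226 genes lay towards *D. simulans* and 151 towards *D. melanogaster* at an unadjusted p below 0.05 (10.2% in both directions). The sign was the same in all 5 embryos for 205 (5.56%) and 151 (4.09%). When the variance was fitted as a trend over mean FPKM, 23 genes were called towards *D. simulans* and 10 towards *D. melanogaster*, all with the same sign in 5 of 5 embryos.

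*Ance* (chr2L:13905645-13909212), which encodes a peptidase related to angiotensin-converting enzyme, had ASE of -0.37, -0.53, -0.33, -0.46 and -0.34 in the furrow region, against 0.14, 0.13, 0.22, 0.24 and 0.06 in the rest. All 5 furrow values favoured *D. melanogaster* and all 5 values of the rest favoured *D. simulans*. The shift was -0.56 ± 0.05 (SE, n = 5), with a limma adjusted p of 0.135, and of 0.0283 with the trend. *Midline fasciclin* (*mfas*, chr3R:7810584-7819037), an adhesion protein, had ASE of -0.51, -0.54, -0.32, -0.49 and -0.23, against -0.16, -0.15, 0.25, 0.06 and 0.34 in the rest (-0.50 ± 0.04). *Pathetic* (*path*), an amino acid transporter, had a shift of -0.26 ± 0.03, *pxb* of -0.17 ± 0.01 and the glycosyltransferase gene *pgant5* of -0.16 ± 0.02. In *pxb*, ASE stayed above 0 in every embryo and was 0.10, 0.02, 0.11, 0.10 and 0.09 in the furrow region, against 0.30, 0.18, 0.28, 0.28 and 0.25 in the rest.

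In the other direction *CG43394* (chr2L:8145758-8158786) had ASE of 0.30, 0.28, 0.19, 0.28 and 0.03 in the furrow region, against -0.08, -0.16, -0.12, -0.06 and -0.16 in the rest (0.32 ± 0.03), so that all furrow values favoured *D. simulans* and all values of the rest *D. melanogaster*. *Dtg*, a target of the Dpp signal, had 0.21, 0.16, 0.15, 0.20 and 0.15, against 0.08, 0.06, 0.05, 0.08 and 0.02 in the rest (0.12 ± 0.01), and an adjusted p of 0.00797 with the trend. *CREG* (0.19 ± 0.02), *CG12581* (0.11 ± 0.01) and a lethal gene at chr2R:14684480-14691232 (0.15 ± 0.01) lay the same way. For *CREG* the embryos differed far more by direction of the cross than by region, with -0.20, -0.06, -0.28, 0.64 and 0.61 in the furrow region, against -0.51, -0.41, -0.56, 0.54 and 0.57 in the rest. Counts of allele-specific reads could be tested for 1339 genes. edgeR's quasi-likelihood test called *Ance* (log2 ratio -1.76) and *NimC4* (1.92), which encodes a receptor for apoptotic cells, both with an adjusted p of 0.0352, and 50 genes had an unadjusted p below 0.05. DESeq2 called 12 genes. *NimC4* was named after its values were seen.

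**Figure D4:**
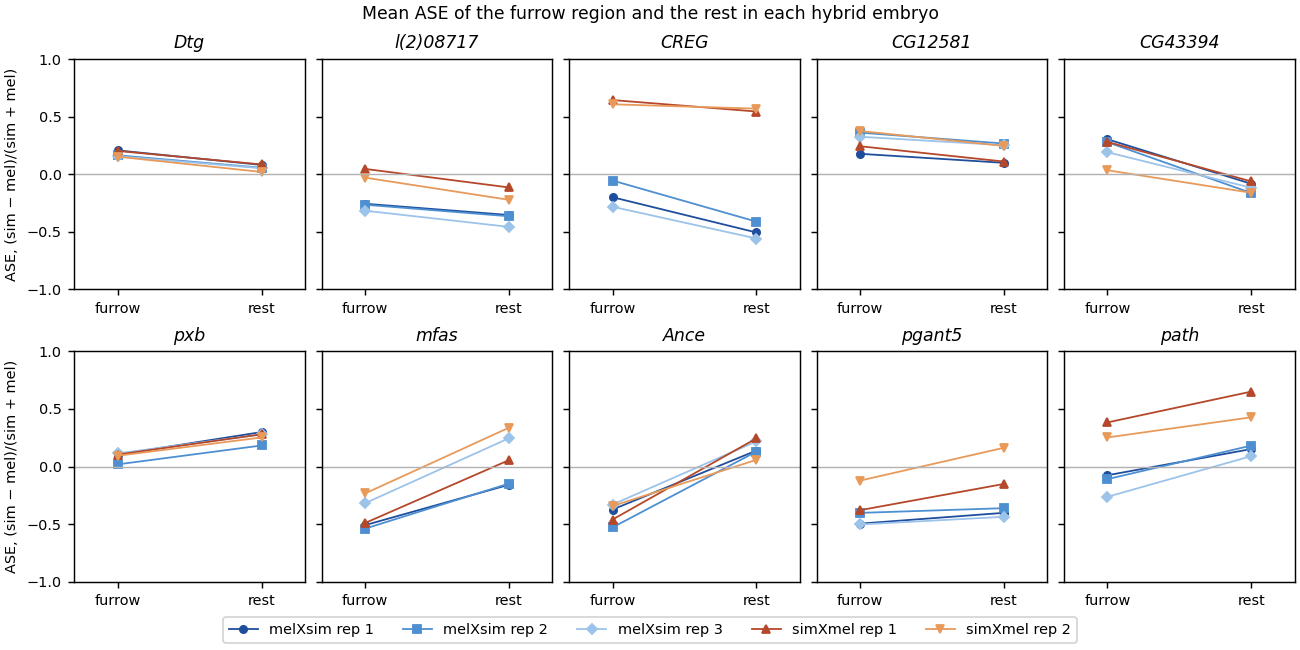
ASE (vertical axes, -1 for *D. melanogaster* reads alone and 1 for *D. simulans* reads alone) in the furrow region and in the rest for 10 genes, with 1 line for each of the 5 hybrid embryos. In each panel the 5 lines slope the same way, since the rule that named the genes required 1 sign in all 5 embryos. In *Ance* and *CG43394* they cross 0.

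Among the patterning genes with ASE in enough slices, 4 of 7 dorsoventral genes and 3 of 4 segment polarity genes had an unadjusted p below 0.05 for the species shift, against 10.2% of all genes tested, and none passed the adjustment without the trend. With the trend *zen* (limma adjusted p = 0.0461) and *tld* (0.0482) were called. *Zen*, a homeobox gene of the dorsal midline, had a mean ASE of 0.24 in the furrow region and -0.06 in the rest, and *tld* had 0.36 in the furrow region and 0.10 in the rest. *Wg* had -0.12 in the furrow region and 0.11 in the rest. None of the 5 pair-rule genes tested had an unadjusted p below 0.05, and their shifts lay between -0.05 and 0.07. *Eve* had ASE of -0.06, 0.00, 0.08, -0.05 and -0.05 in the furrow region, against -0.03, 0.08, 0.05, 0.01 and 0.04 in the rest (-0.05 ± 0.02). *18w* had a shift of -0.04 ± 0.02 and *Tollo* of 0.06 ± 0.02. No head patterning or Hox gene entered this test, for want of slices with ASE or because of X linkage.

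The share of the mother's allele hardly differed between region and rest. Its median over 3690 genes was 81.2%, 75.7%, 87.1%, 77.1% and 74.8% in the furrow region, against 81.5%, 76.4%, 86.9%, 75.2% and 75.1% in the rest of the same embryos. The furrow was higher in melXsim rep 3 and simXmel rep 1 and lower in the other embryos. limma called 0 genes in either direction, with 143 of higher and 161 of lower share at an unadjusted p below 0.05 (8.24%) and a smallest adjusted p of 0.391. The sign was the same in all 5 embryos for 168 genes of higher (4.55%) and 133 of lower share (3.6%). edgeR called 0 of 1339 genes on allele counts, and DESeq2 called 4. Housekeeping genes had a median of 89.8% in the furrow region and 88.8% in the rest, and mitotic timing genes 72.1% in the furrow region and 71.2% in the rest.

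*Btk29A*, a tyrosine kinase gene, had the lowest p among genes with a higher share in all 5 embryos, with 97.4, 93.9, 97.5, 95.1 and 96.3% in the furrow region, against 92.6, 88.2, 93.6, 85.2 and 89.5% in the rest (6.56 ± 0.731 percentage points, limma adjusted p = 0.391). The endoplasmic reticulum genes *CaBP1* (4.04 ± 0.543 points) and *Gp93* (4.06 ± 0.593 points), the autophagy kinase gene *Atg1* (6.65 ± 0.975 points) and *aay* (6.45 ± 0.962 points) followed. Among lower shares, *mgr* had 77.03, 72.1, 82.6, 49.4 and 49.96%, against 79.2, 74.3, 84.95, 57.8 and 58.99% in the rest (-5.504 ± 0.506 points). *CG6325*, *Nufip*, the histone demethylase gene *Kdm4B* and *CG17724* had -5.66 ± 0.579, -5.49 ± 0.696, -10.1 ± 1.196 and -11.97 ± 1.46 points. The last 2 overlap on chromosome 2R, at chr2R:9073039-9085842 and chr2R:9063599-9077591, and may share reads.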

How the data were processed

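Whole hybrid embryos were cut into slices and each slice was sequenced as its own SMART-seq2 library. The authors aligned reads with STAR 2.4.2a, computed FPKM with Cufflinks 2.2.1 against release 5 annotation, and deposited FPKM per gene and slice. The deposited ASE is a score per gene and slice, (sim - mel)/(sim + mel), which the authors made from reads that cover species differences after removal of reads with mapping bias. The allele counts that the authors deposited per gene were usable for 3005 genes, of which 1610 were above 0, since the other entries carry coordinates of another release. CASAVA 1.8.2 also stands in the submitters' processing notes. In the authors' joint files a total of 27 columns hold no values and were not used here.

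Groups came from the labels, with each sample 1 slice. FPKM and ASE were averaged over the slices of a region within an embryo. Expression was tested with limma 3.58.1 (R 4.3.3) on log2(mean FPKM + 1), paired by embryo, with a trend in the variance, for 6722 genes with a mean of at least 1 FPKM. ASE was tested with limma with 1 coefficient for each direction of the cross, for 3690 autosomal genes with ASE in at least 2 furrow and 10 other slices of every embryo. X-linked genes were left out of ASE and sex was not inferred. Allele counts, with at least 20 per embryo and region, were tested with edgeR 4.0.16 and DESeq2 1.42.0 as alternatives. P-values were adjusted by Benjamini-Hochberg over all genes tested, at a threshold of 0.05. The fits were tested on simulated data.

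The pairing follows from the design, since both regions were cut from 1 animal. Deviations of the furrow from its mean over embryos correlated across genes with those of the rest of the same embryo at 0.868 to 0.925, and at most at 0.65 with another embryo. Genes are not independent replicates, and embryos are the only replicates. The depth given is the sum of usable allele counts, which covers part of each library, so that no interval was computed from it, and the depth behind FPKM is unknown.

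Genes were named by a rule. It took the markers of the region, the 15 largest increases and the 8 largest decreases against the rest among called genes with 1 sign in all 5 embryos and a mean of at least 3 FPKM, the 5 largest in each direction against each neighbour, the genes called above both neighbours, the genes of lowest p for ASE (5 in each direction with 1 sign in all 5 embryos) and for the cross, and members of the lists. The members and lists were chosen with earlier results of these data known. Alternatives were the pseudocount (0.1 or 5 FPKM), the filter, scaling, the median over slices, the variance model, the pairing, each embryo left out, the library batch and the slices that make up the rest.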

Additional observations from a re-analysis of the deposited data

Results flagged for a closer look

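Of 66 differences checked for 1 embryo far from the other 4, 5 stood out, and chance gives about 1 in 20. For *ems*, the difference between the furrow region and the rest was 0.37 in melXsim rep 2, against 2.34 to 3.04 in the other embryos, and that between the furrow region and the thoracic trunk region was 3.97 in the same embryo, against 5.76 to 6.39. The stripes of *eve* began farthest anterior in melXsim rep 2, and the part of this shift in the *ems* values was not tested. For *E(spl)malpha-BFM*, melXsim rep 3 had a difference from the rest of 0.47, against 1.39 to 1.60 in the others. Against the head region, *CG4702* had 2.85 in simXmel rep 2, against 3.97 to 4.29, and *erm* had -2.52 in melXsim rep 3, against -4.81 to -4.21.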

How the results depend on the processing

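Counts of called genes against the rest, higher and lower, were 58 and 95 with no filter on low values, 95 and 187 without the trend, and 10 and 45 with no replicate block (no pairing by embryo). With the median over slices they were 164 and 70. They were 102 and 175 when the 3 furrow slices blank in the table were taken from their own files, an alternative chosen after seeing the data. Against the head region they were 9 and 9 with no filter and 10 and 17 with no replicate block, and 69 were higher without the trend. Against the trunk region they were 2 and 2 with no filter, 73 and 41 with the median, 53 and 35 without the trend, 5 and 3 with no replicate block, 58 and 35 in the first batch and 52 and 31 in the later batches. Genes above both neighbours were 2 in the first batch, neither of them *18w*, and 0 with a pseudocount of 0.1 FPKM, with no filter, without the trend or in the later batches. By direction of the cross, 8 genes were called with a pseudocount of 5 FPKM. Against the rest, the first batch gave 80 and 130 and the later batches 95 and 129. With 1 embryo left out, counts lay between 65 and 98 for higher genes against the trunk region, 0 and 2 above both neighbours, 0 and 1 below both and 0 and 8 for the cross. For the species shift, towards *D. simulans* and *D. melanogaster*, counts were 6 and 2 on the log2 ratio, 23 and 10 with the trend, 1 and 1 with edgeR and 6 and 6 with DESeq2, and 1 towards *D. melanogaster* with no replicate block. For the maternal share, 2 were higher on the log2 ratio, 1 with the trend, and 3 higher and 1 lower with DESeq2. Signs turned for *tll* (0.27 with the median) and for *Gasp* (-0.89 for the cross with the median). The difference of *Cpr72Ea* for the cross went to 0 with the median. *Eve* turned too, from -0.05 against the rest to 0.00070 with the blank slices added. With 1 embryo left out *eve* lay between -0.14 and 0.058, the last without simXmel rep 2. The causes were not tested.

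A minimum of 3 furrow and 15 other slices left 0 genes with ASE and gave no value. With 5 embryos the exact test cannot go below 0.0625. A region of 2 or 3 slices with values averages over levels that change within it, and a slice holds all cells around the axis.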
